A study of Mus musculus with 4 samples.

Results

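The 9 long noncoding RNAs described here are *1600020E01Rik*, *0610038B21Rik*, *Malat1*, *Neat1*, *Meg3*, *Miat*, *Snhg11*, *Rian* and *Mirg*, of 17667 genes listed in at least 1 library and 15275 listed in all 4. They were matched by symbol to the Entrez identifiers of the tables, and all 9 were listed in all 4 libraries, so that no member was lost to a filter on low values. *1600020E01Rik* and *0610038B21Rik* were selected on their opposite changes in the mutant libraries of these data, and the other 7 were listed with their levels known. Their levels and ratios are therefore a description, with no test and no p-value.

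RNA-seq was performed on thoracic T1–T4 sympathetic ganglia (SG), which hold the neurons that innervate interscapular brown fat, from 12-week-old C57BL/6 mice kept at 5 °C for 1 day. The libraries labelled WT_1 and WT_2 came from wild type mice, 1 library is labelled TRKC+/-, the genotype of mice that carry 1 functional allele of the NT-3 receptor gene in every cell, and 1 came from AdNTF3-Tg mice, which overexpress the neurotrophic factor NT-3 in adipocytes under the adiponectin promoter. Each library was a pool of animals, there was 1 library for each mutant genotype, and all 4 groups were exposed to cold, so the libraries hold no measure of the response to cold itself. The labels do not say which WT library was the control of which mutant. Each mutant was therefore compared with each WT library, and the difference between WT_1 and WT_2 is the only spread between libraries of 1 genotype. *Ntrk3*, which codes for TRKC, had 2.45 FPKM (78 reads) in WT_1, 2.52 (83) in WT_2, 2.72 (91) in the library labelled TRKC+/- and 2.32 (76) in the AdNTF3-Tg library. The log2 ratio of the library labelled TRKC+/- was 0.15, with an exact 95% counting interval of -0.27 to 0.64, against WT_1 and 0.11 (-0.32 to 0.57) against WT_2. The loss of 1 allele would be seen as a lower level if only the intact allele were counted, so the *Ntrk3* reads go against this label, and every direction given for this library rests on it. In the paper, expression of this gene in sympathetic ganglia was reported lower in TRKC+/- mice than in their wild type littermates. *Ntf3*, which codes for NT-3, had 2 reads, in the library labelled TRKC+/-, and was not listed in the others, and the transgene acts in adipocytes, so *Ntf3* does not check the AdNTF3-Tg label. Because the ganglia were measured in bulk, fewer cells of a type and less RNA per cell cannot be told apart.

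Long noncoding RNAs are transcripts that are not translated into a known protein. *Malat1* and *Neat1* lie next to each other in the genome and stay in the nucleus, where *Malat1* gathers in splicing factor speckles and *Neat1* is the scaffold of paraspeckles. *Meg3*, *Rian* and *Mirg* are transcribed from the maternal chromosome of the imprinted *Dlk1*-*Dio3* region, where *Rian* and *Mirg* carry arrays of small nucleolar RNAs and microRNAs. *Miat* is a neuronal nuclear RNA that binds splicing factors, and *Snhg11* is a small nucleolar RNA host gene that is abundant in neurons. No function is given here for *1600020E01Rik* and *0610038B21Rik*.

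The start regions of both RNAs with the widest spread and of *Meg3*, the first gene of the maternal array, are shown for comparison, since these are the RNAs that differed most between libraries and the most abundant RNA of the set. The sequences are from RefSeq on GRCm38.p6, 300 bases long with 250 bases before the annotated start, and such a window was found for 8 of the 9 RNAs (all but *Neat1*). Capitals in *1600020E01Rik* mark matches to GCCATNTT, a core recognised by the factor YY1, and capitals in *Meg3* mark TGACGTCA, the cyclic AMP response element (CRE). The YY1 core was chosen after this sequence had been read. The windows lie at chr6:86527080-86527379, chr8:77516806-77517105 and chr12:109540746-109541045, all on the plus strand.
*1600020E01Rik*: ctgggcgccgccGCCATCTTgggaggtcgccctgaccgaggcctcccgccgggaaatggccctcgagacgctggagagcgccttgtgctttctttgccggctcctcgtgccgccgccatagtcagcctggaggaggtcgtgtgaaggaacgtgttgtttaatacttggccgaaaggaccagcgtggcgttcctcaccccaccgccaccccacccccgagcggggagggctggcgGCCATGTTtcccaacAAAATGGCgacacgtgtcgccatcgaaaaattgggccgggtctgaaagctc
*0610038B21Rik*: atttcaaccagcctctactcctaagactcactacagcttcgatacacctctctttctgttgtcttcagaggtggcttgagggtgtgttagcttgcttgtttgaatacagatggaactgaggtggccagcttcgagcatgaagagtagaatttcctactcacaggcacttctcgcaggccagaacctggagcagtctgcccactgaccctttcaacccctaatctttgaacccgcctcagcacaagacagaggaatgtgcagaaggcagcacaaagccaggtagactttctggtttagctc
*Meg3*: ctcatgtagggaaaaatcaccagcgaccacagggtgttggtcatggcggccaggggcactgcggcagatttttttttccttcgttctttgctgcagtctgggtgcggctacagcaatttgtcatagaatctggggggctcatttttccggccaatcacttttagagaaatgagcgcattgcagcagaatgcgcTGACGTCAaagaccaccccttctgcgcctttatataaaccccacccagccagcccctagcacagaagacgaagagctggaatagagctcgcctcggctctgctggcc

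The *1600020E01Rik* window held 3 matches to GCCATNTT on either strand, whose leftmost bases were 238, 16 and 1 bases before the annotated start. The motif was found in 1988 of 32851 RefSeq windows of this length (6.05%), and 8 windows (0.0244%) held 3 or more matches. The window was also rich in G and C, at 64.3% with 28 CpG pairs, against medians of 52.7% and 7 over all windows. The *0610038B21Rik* window had a G and C content of 49.7%, 4 CpG pairs and no match to either motif. The *Meg3* window held 1 CRE match 57 bases before the start, and 588 windows (1.79%) held that motif. No other window of a member held TGACGTCA, the windows at the alternative starts of *1600020E01Rik* and *Meg3* included. These matches describe letters in the reference sequence, and factor binding was not measured.

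The members fell into a highly expressed group and a weakly expressed pair. The mean over 4 libraries was 472 FPKM (reads scaled to transcript length and to the reads of the library) for *Meg3*, 277 FPKM for *Snhg11*, 210 FPKM for *Rian* and 146 FPKM for *Neat1*. These were ranks 1, 2, 3 and 5 among the 591 genes of the RefSeq long noncoding class listed in all 4 libraries. *Miat* at 40.7 FPKM ranked 12, *Malat1* at 30.5 FPKM ranked 17 and *Mirg* at 20.6 FPKM ranked 22. *1600020E01Rik*, at a mean of 4.52 FPKM, ranked 107, and *0610038B21Rik*, at 1.04 FPKM, ranked 307. Among all genes listed in 4 libraries *Meg3* ranked 80, and the median gene had 7.89 FPKM. Together the 9 RNAs took between 0.632% and 0.668% of the reads of a library.

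**Figure D1:**
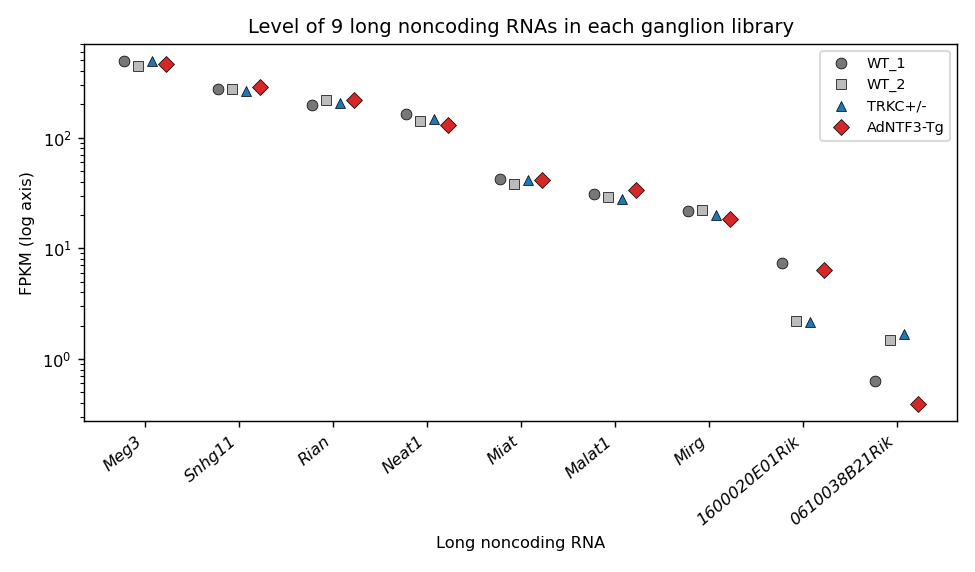
FPKM of each of the 9 long noncoding RNAs (log axis) in the 4 libraries, 1 point per library. The points of *1600020E01Rik* span 2.15 to 7.36 FPKM and those of *0610038B21Rik* 0.39 to 1.69 FPKM, whereas the points of the abundant RNAs nearly coincide.

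*1600020E01Rik* (Entrez 72012) is annotated by GENCODE on NCBIM37 as a lincRNA on the plus strand of chromosome 6, from 86476265 to 86514436. Its level was 7.36 FPKM (34 reads) in WT_1, 2.2 FPKM (10 reads) in WT_2, 2.15 FPKM (10 reads) in the library labelled TRKC+/- and 6.36 FPKM (29 reads) in the AdNTF3-Tg library. The WT libraries thus stood at both levels: WT_1 was near the AdNTF3-Tg library and WT_2 near the library labelled TRKC+/-. The highest level was 3.42 times the lowest.

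On the scale log2((FPKM + 0.1)/(FPKM + 0.1)), the library labelled TRKC+/- was at -1.73 against WT_1, with an exact 95% counting interval of -2.99 to -0.75, and at -0.03 (-1.43 to 1.41) against WT_2. For the AdNTF3-Tg library the value was -0.21 (-1.02 to 0.51) against WT_1 and 1.49 (0.46 to 2.74) against WT_2. WT_2 itself was at -1.70 (-2.98 to -0.75) against WT_1. The difference between the WT libraries was therefore about as large as the largest difference between a mutant and a WT library, and neither mutant differed from both WT libraries by 0.5 or more. The intervals come from the reads of a pair of libraries and cover counting error only, not the spread between animals or pools.

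*0610038B21Rik* (Entrez 70345) had nearly the opposite pattern. It had 0.63 FPKM (8 reads) in WT_1, 1.47 FPKM (19 reads) in WT_2, 1.69 FPKM (22 reads) in the library labelled TRKC+/- and 0.39 FPKM (5 reads) in the AdNTF3-Tg library. WT_1 and the AdNTF3-Tg library were low, and WT_2 and the library labelled TRKC+/- were high. On the log2 scale the library labelled TRKC+/- was at 1.29 (0.20 to 2.80) against WT_1 and at 0.19 (-0.75 to 1.17) against WT_2. For the AdNTF3-Tg library it was -0.58 (-2.66 to 1.09) against WT_1 and -1.68 (-3.70 to -0.45) against WT_2. It was lower than both WT libraries by more than 0.5, but the counting interval against WT_1 included 0. With a pseudocount of 1 FPKM in place of 0.1, these ratios were -0.23 and -0.83, and that of the library labelled TRKC+/- against WT_1 was 0.72. WT_2 was at 1.10 (-0.04 to 2.62) against WT_1.

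**Figure D2:**
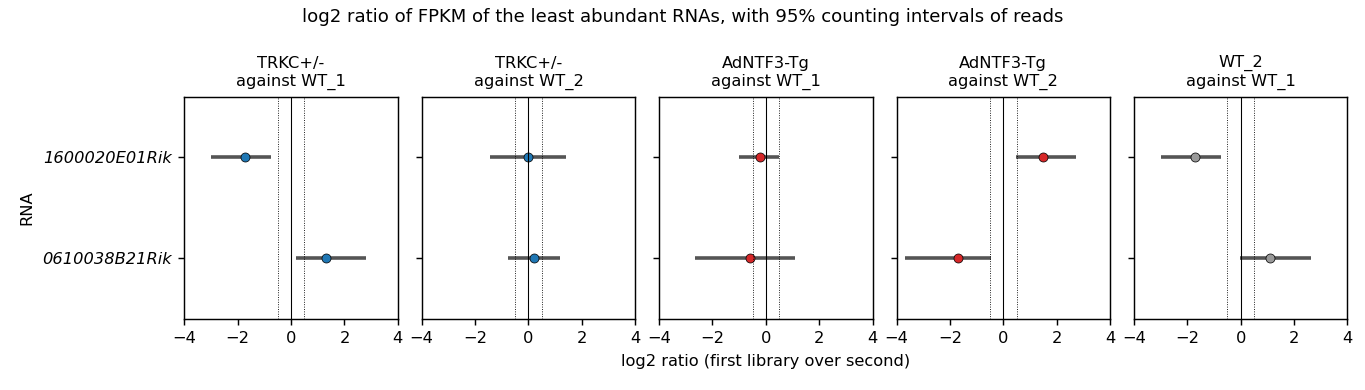
log2 ratio of FPKM (points) of *1600020E01Rik* and *0610038B21Rik* in 5 comparisons of libraries, with the exact 95% counting interval of reads per library total (bars) and lines at 0 and at 0.5 either way. *1600020E01Rik* lies at -1.73 in the library labelled TRKC+/- against WT_1 and at -1.70 in WT_2 against WT_1, so that the comparison within WT is as wide as that with the mutant.

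The spread of these RNAs was wide for their depth. The difference between the highest and the lowest library was 1.73 on the log2(FPKM + 0.1) scale for *1600020E01Rik* and 1.87 for *0610038B21Rik*, values larger than those of 98.3% and 98.7% of the 15275 genes. Low counts spread more, and among the 1421 genes with a mean of 10 to 30 reads the median difference was 0.78. In that range of reads, which was set after the values had been seen, 3.73% of genes had a wider spread than *1600020E01Rik* and 2.81% a wider one than *0610038B21Rik*. As both RNAs were selected on their changes, these shares describe the selection.

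The genes next to both RNAs differed in pattern. *Pcbp1*, which codes for a poly(C)-binding protein and lies to the left of *1600020E01Rik*, had 110.4 FPKM in WT_1, 113.1 in WT_2, 109.95 in the library labelled TRKC+/- and 116.88 in the AdNTF3-Tg library. Its log2 ratios lay between -0.04 and 0.08 in all 5 comparisons. *Asprv1*, which codes for a skin protease and lies to the right, had 7 reads in WT_1, 8 in WT_2, 3 in the library labelled TRKC+/- and 1 in the AdNTF3-Tg library, too few for a fold. *Prmt9*, an arginine methyltransferase gene next to *0610038B21Rik*, had between 12.95 and 14.38 FPKM. *Nr3c2*, the mineralocorticoid receptor gene on its other side, had 2.02 FPKM in WT_1, 1.26 in WT_2, 1.53 in the library labelled TRKC+/- and 1.81 in the AdNTF3-Tg library. Its WT_1 and AdNTF3-Tg levels were the higher ones, the reverse of *0610038B21Rik*, within a narrower range. *0610038B21Rik* overlaps *Arhgap10*, a GTPase-activating protein gene with 7.86, 7.26, 8.25 and 6.65 FPKM in WT_1, WT_2, the library labelled TRKC+/- and the AdNTF3-Tg library. The strand setting of the counting is not given in the sources used here, so reads of overlapping genes cannot be told apart.

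The genes most like *1600020E01Rik* over the 4 libraries, by the Euclidean distance of centred log2(FPKM + 0.1) among the 12752 genes averaging 1 FPKM or more, were *Msr1* at 0.44, *E030011O05Rik* at 0.55 and *Gm16596* at 0.59. *Msr1*, a macrophage scavenger receptor gene, had 2.97 FPKM (54 reads) in WT_1, 1.28 (35) in WT_2, 0.91 (29) in the library labelled TRKC+/- and 2.57 (54) in the AdNTF3-Tg library. Its reads differed less than its FPKM, which also uses the transcript length, so its likeness is smaller in reads. All 6 macrophage markers were listed in all 4 libraries. Their summed level was 46.4 FPKM in WT_1, 39.5 in WT_2, 43.1 in the library labelled TRKC+/- and 39.3 in the AdNTF3-Tg library. This order differed from that of *1600020E01Rik*, and the part of macrophage RNA in its level was not tested. For *0610038B21Rik* the nearest genes were *Apoa2* and *Gm527*, both at 0.53, and *Rnu2-10* at 0.55, of which *Apoa2*, an apolipoprotein gene, had 3 to 10 reads and *Rnu2-10* 1 to 4. *Gm527* had 1.04 FPKM in WT_1, 1.51 in WT_2, 1.88 in the library labelled TRKC+/- and 0.64 in the AdNTF3-Tg library. With 4 libraries, such likeness describes an order of levels and is no test.

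The libraries also differed in RNA of other tissues. All 8 skeletal muscle markers listed in every library (of 9) passed 0.5 in all 5 comparisons, and their summed level was 102 FPKM in WT_1, 3.37 in WT_2, 47.2 in the library labelled TRKC+/- and 35.6 in the AdNTF3-Tg library. *Myh1* was the marker missing from at least 1 library. *1600020E01Rik* was likewise highest in WT_1, but its level in the library labelled TRKC+/- was as low as in WT_2, whereas the muscle markers were not. The part of muscle RNA in its level was not tested. The 7 brown adipocyte markers, all listed in every library, summed to 384 FPKM in WT_1, 347 in WT_2, 211 in the library labelled TRKC+/- and 280 in the AdNTF3-Tg library. In the library labelled TRKC+/- 3 of the 7 were lower than both WT libraries by 0.5 or more, *Ucp1*, *Fabp4* and *Elovl3*, beside 2.49% of all genes, and in the AdNTF3-Tg library 1 was, *Elovl3*, beside 3.58%. *Ucp1*, the uncoupling protein of brown fat, had 7.8 FPKM in the library labelled TRKC+/- beside 47.33 in WT_1, 48.14 in WT_2 and 37.81 in the AdNTF3-Tg library. *1600020E01Rik* had 10 reads in WT_2 and 10 in the library labelled TRKC+/-. The part of brown adipocyte RNA in its level was not tested. The 10 sympathetic neuron markers summed to between 10100 and 10800 FPKM, and none of them passed 0.5 in any of the comparisons. Over all genes 10.7% to 13.9% passed in a comparison, but these markers had a median of 13100 reads a gene beside 202.

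Of the 9 RNAs, 2 passed an absolute log2 ratio of 0.5 in the library labelled TRKC+/- against WT_1, where 10.7% of all genes did, and 0 against WT_2, where 12.7% did. In the AdNTF3-Tg library 1 passed against WT_1, beside 13.9% of all genes, and 2 against WT_2, beside 13.3%. Between WT_2 and WT_1, 2 passed, beside 13.4% of all genes. In each case the RNAs past 0.5 were *1600020E01Rik* or *0610038B21Rik*, whose selection used these ratios. Against both WT libraries in the same direction, none of the 9 passed in the library labelled TRKC+/-, where 4.27% of all genes did (1.78% higher and 2.49% lower). In the AdNTF3-Tg library 1 was lower, *0610038B21Rik*, beside 5.70% of all genes (2.12% higher and 3.58% lower).

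The abundant RNAs varied little. The highest library exceeded the lowest 1.26-fold for *Neat1*, 1.21-fold for *Malat1*, 1.19-fold for *Mirg*, 1.11-fold for *Meg3* and for *Miat*, 1.10-fold for *Rian* and 1.08-fold for *Snhg11*. For all but *Mirg*, whose 5 counting intervals included 0, some of these small ratios exceeded counting error. The counting interval of WT_2 against WT_1 excluded 0 for 5 of the 9 RNAs, and for 20.5% of all genes. A counting interval that excludes 0 therefore does not separate a mutant from the spread between WT pools. Counting all 9 RNAs, the library labelled TRKC+/- lay above both WT libraries for 2, below both for 4 and between them for 3, and the AdNTF3-Tg library lay above for 3, below for 3 and between for 3. Over all genes the former was above both by any amount for 31.9% and below for 30.8%, and the latter for 33.7% and 34.0%, so the counts of members are near the background.

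**Figure D3:**
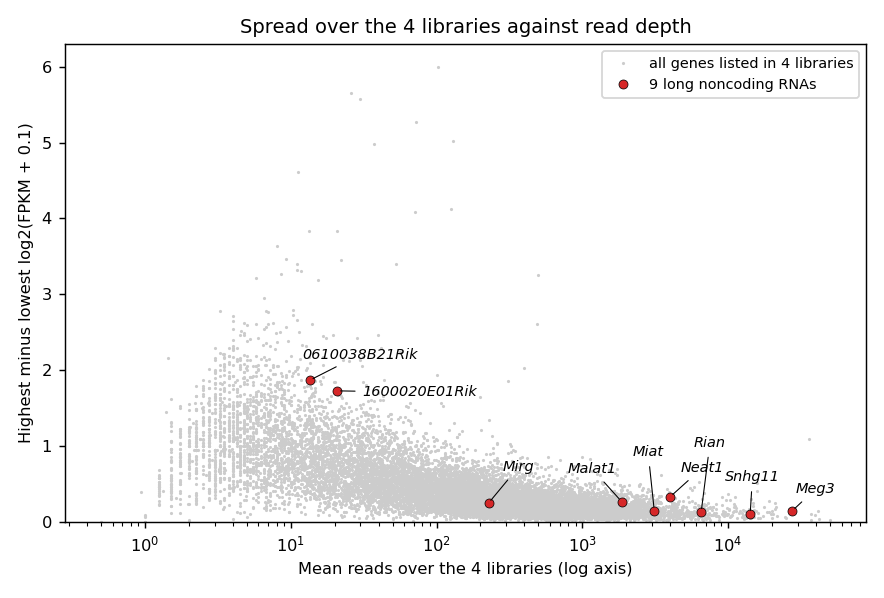
Difference between the highest and the lowest of the 4 libraries on the log2(FPKM + 0.1) scale against the mean reads of a gene (log axis), for 15275 genes (grey points) and the 9 long noncoding RNAs (red points). *1600020E01Rik* at 1.73 and *0610038B21Rik* at 1.87 lie near the upper edge of the genes with few reads, and the other 7 lie between 0.11 and 0.33.

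*Neat1* (Entrez 66961) lies on the minus strand of chromosome 19, from 5824708 to 5845478 on NCBIM37. Its level was 163.67 FPKM (4446 reads) in WT_1, 140.94 (3883) in WT_2, 148.4 (4122) in the library labelled TRKC+/- and 129.92 (3561) in the AdNTF3-Tg library. The AdNTF3-Tg library was the lowest of the 4, and the library labelled TRKC+/- lay between the WT libraries. The AdNTF3-Tg library was at -0.33 (-0.41 to -0.28) against WT_1 and at -0.12 (-0.18 to -0.05) against WT_2 on the log2 scale, while WT_2 was at -0.22 (-0.29 to -0.16) against WT_1. The library labelled TRKC+/- was at -0.14 (-0.21 to -0.09) against WT_1 and at 0.07 (0.01 to 0.14) against WT_2, on either side of 0. The tables counted 1 *Neat1* transcript model of 3177 bases, in a gene that spans 20771 bases, so that reads of the long form beyond that model were not counted, and its first part is shared by both forms. The libraries were made from oligo(dT)-selected RNA, which favours polyadenylated transcripts, and the long *Neat1* form that builds paraspeckles is not polyadenylated.

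*Malat1* (Entrez 72289) lies beside *Neat1*, from 5795690 to 5802671 on the minus strand of chromosome 19. Its level was 30.66 FPKM (1847.02 expected reads) in WT_1, 29.15 (1786.49) in WT_2, 28.15 (1736.55) in the library labelled TRKC+/- and 33.96 (2071.11) in the AdNTF3-Tg library. Here the AdNTF3-Tg library was the highest and the library labelled TRKC+/- the lowest. Against WT_1 the AdNTF3-Tg library was at 0.15 (0.05 to 0.23) and against WT_2 at 0.22 (0.13 to 0.31), and the library labelled TRKC+/- was at -0.12 (-0.22 to -0.03) against WT_1 and at -0.05 (-0.14 to 0.05) against WT_2. WT_2 was at -0.07 (-0.17 to 0.02) against WT_1, a smaller distance than that of the AdNTF3-Tg library from either. All these ratios were below 0.5. The expected reads were not whole, as reads that also match other genes are divided between them. The mature 3' end of *Malat1* is not a poly(A) tail, and its level in oligo(dT)-selected RNA need not be its level in the nucleus.

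The balance of both neighbours differed most in the AdNTF3-Tg library. The *Neat1* to *Malat1* ratio of FPKM was 5.34 in WT_1, 4.83 in WT_2, 5.27 in the library labelled TRKC+/- and 3.83 in the AdNTF3-Tg library, which lay below both WT libraries by more than they differed from each other. *Frmd8*, a protein-coding gene next to the pair, had 14.43 to 16.22 FPKM.

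The mRNAs of nuclear body proteins were read beside these RNAs. All 14 genes of the paraspeckle protein list were listed, and 0, 1, 1, 0 and 0 of them passed 0.5 in the library labelled TRKC+/- against WT_1 and WT_2, in the AdNTF3-Tg library against WT_1 and WT_2, and between WT_2 and WT_1. None passed against both WT libraries. Over all genes 10.7% to 13.9% passed in a comparison, but the list had a median of 890 reads a gene beside 202, and genes with more reads spread less. The list medians lay between -0.05 and 0.03, beside -0.01 to 0.00 for all genes. The most abundant were *Hnrnpk*, an RNA-binding protein gene with 152.81 to 158.27 FPKM, and *Rbm3*, the gene of a cold-inducible RNA-binding protein. *Rbm3* had 127.83 FPKM in WT_1, 177.15 in WT_2, 110.04 in the library labelled TRKC+/- and 135.9 in the AdNTF3-Tg library, at -0.22 for the library labelled TRKC+/- against WT_1 and -0.69 against WT_2. The other gene past 0.5 was *Cpsf6*, of the cleavage factor complex, at 0.59 in the AdNTF3-Tg library against WT_1 and at 0.10 against WT_2. *Sfpq* and *Nono*, whose proteins bind *Neat1* in the core of paraspeckles, were added for their role and had 43.87 to 49.3 FPKM and 72.76 to 76.62 FPKM.

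Of all genes, with a median of 202 reads, 10.7% to 13.9% passed 0.5 in a comparison. Of 14 genes of nuclear speckle proteins, all listed and with a median of 1120 reads, 0 passed 0.5 in any of the 5 comparisons. Their medians were 0.02 and -0.06 for the library labelled TRKC+/- against WT_1 and WT_2, 0.13 and 0.04 for the AdNTF3-Tg library, and 0.11 for WT_2 against WT_1. The most abundant were *Srsf5*, a splicing factor gene with 81.67 to 105.73 FPKM, and *Srrm2*, which codes for a core protein of speckles and had 87 to 91.86 FPKM.

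*Miat* (Entrez 330166) lies on the minus strand of chromosome 5, from 112642248 to 112657968. Its level was 42.31 FPKM (3191 reads) in WT_1, 38.09 (2925) in WT_2, 41.49 (3208) in the library labelled TRKC+/- and 41.07 (3137) in the AdNTF3-Tg library. Both mutants lay between the WT libraries, which differed by -0.15 (-0.23 to -0.08) for WT_2 against WT_1 and so marked the whole range. Over all genes, with a median of 202 reads, 10.7% to 13.9% passed 0.5 in a comparison. Of 4 genes of splicing factor partners of *Miat*, with a median of 1190 reads, 0 passed 0.5 in any comparison. The most abundant were *Celf3*, with 67.73, 64.02, 73.38 and 63.54 FPKM in WT_1, WT_2, the library labelled TRKC+/- and the AdNTF3-Tg library, and *Srsf1*, with 26.33 to 33.93 FPKM.

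**Figure D4:**
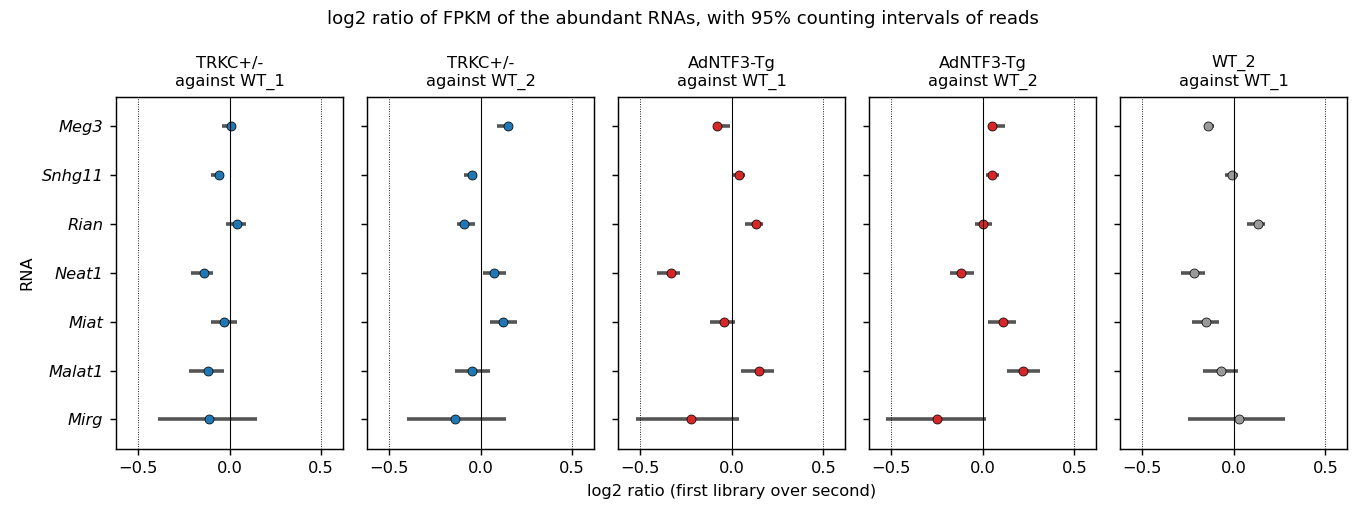
log2 ratio of FPKM (points) of the 7 abundant long noncoding RNAs in 5 comparisons of libraries, with the exact 95% counting interval of reads per library total (bars) and dotted lines at 0.5 either way. No point reaches 0.5, the widest is *Neat1* in the AdNTF3-Tg library against WT_1 at -0.33, and points of *Meg3* lie at or beyond the end of its bar because its FPKM also uses a transcript length that differs between libraries.

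*Meg3* (Entrez 17263), *Rian* (Entrez 75745) and *Mirg* (Entrez 100040724) follow each other on the plus strand of chromosome 12. On NCBIM37 *Meg3* runs from 110779211 to 110809936, *Rian* from 110842155 to 110899919 and *Mirg* from 110973191 to 110987665. RefSeq places 15 microRNA genes with 28 mature forms within them, 2 genes within *Meg3*, 3 within *Rian* and 10 within *Mirg*. Mature microRNAs are too short for these libraries and were not measured, so the host RNA levels are no measure of them. The sequences below show what each host carries, with the seed (bases 2 to 8) in capitals. The first pair, both from *Mirg*, shares its seed, and it was the only seed shared among the 28, which held 27 distinct seeds.
mmu-miR-453: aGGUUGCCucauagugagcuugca
mmu-miR-496a-5p: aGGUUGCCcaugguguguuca
mmu-miR-410-3p (*Mirg*): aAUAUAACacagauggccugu
mmu-miR-154-5p (*Mirg*): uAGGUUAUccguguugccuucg
mmu-miR-370-3p (*Rian*): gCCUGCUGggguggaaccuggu
mmu-miR-770-5p (*Meg3*): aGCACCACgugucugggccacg

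*Meg3*, whose promoter is shown above with its CRE, had 489.71 FPKM (27954 reads) in WT_1, 445.06 (26082) in WT_2, 493.12 (28399) in the library labelled TRKC+/- and 462.07 (27688) in the AdNTF3-Tg library. The library labelled TRKC+/- was next to WT_1, and WT_2 was the lowest. The log2 ratio of the library labelled TRKC+/- was 0.01 against WT_1 and 0.15 against WT_2, that of the AdNTF3-Tg library -0.08 and 0.05, and that of WT_2 against WT_1 was -0.14. The tables divide *Meg3* reads over 4 transcripts, and the resulting length differed from 6521.07 bases in the library labelled TRKC+/- to 6861.86 bases in the AdNTF3-Tg library, which enters its FPKM.

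*Rian* had 199.53 FPKM (6126 reads) in WT_1, 217.95 (6791) in WT_2, 205.23 (6445) in the library labelled TRKC+/- and 218.64 (6778) in the AdNTF3-Tg library. WT_2 and the AdNTF3-Tg library were the higher pair, a different order from that of *Meg3*. The AdNTF3-Tg library was at 0.13 (0.07 to 0.17) against WT_1 and at 0.00 (-0.04 to 0.05) against WT_2, the library labelled TRKC+/- was at 0.04 and -0.09, and WT_2 was at 0.13 (0.07 to 0.17) against WT_1.

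*Mirg* had 21.59 FPKM (237 reads) in WT_1, 22.1 (244) in WT_2, 20.04 (224) in the library labelled TRKC+/- and 18.57 (204) in the AdNTF3-Tg library. Both mutants were below both WT libraries, which were close to each other at 0.03 (-0.25 to 0.28). The AdNTF3-Tg library was at -0.22 (-0.52 to 0.04) against WT_1 and at -0.25 (-0.53 to 0.02) against WT_2, and the library labelled TRKC+/- was at -0.11 (-0.39 to 0.15) and -0.14 (-0.40 to 0.14). All 4 counting intervals included 0, so a difference was not detectable at this depth.

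Within the array the *Rian* to *Meg3* ratio of FPKM was 0.407 in WT_1, 0.49 in WT_2, 0.416 in the library labelled TRKC+/- and 0.473 in the AdNTF3-Tg library, so that both mutants lay between the WT libraries. The *Mirg* to *Rian* ratio was 0.108 in WT_1, 0.101 in WT_2, 0.0976 in the library labelled TRKC+/- and 0.0849 in the AdNTF3-Tg library, below both WT libraries in both mutants. The *Mirg* to *Meg3* ratio was 0.0441 in WT_1, 0.0497 in WT_2, 0.0406 in the library labelled TRKC+/- and 0.0402 in the AdNTF3-Tg library. Both mutants were again below both WT libraries. These 2 ratios rest on the same 204 to 244 *Mirg* reads, whose counting intervals between each mutant and each WT library included 0.

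**Figure D5:**
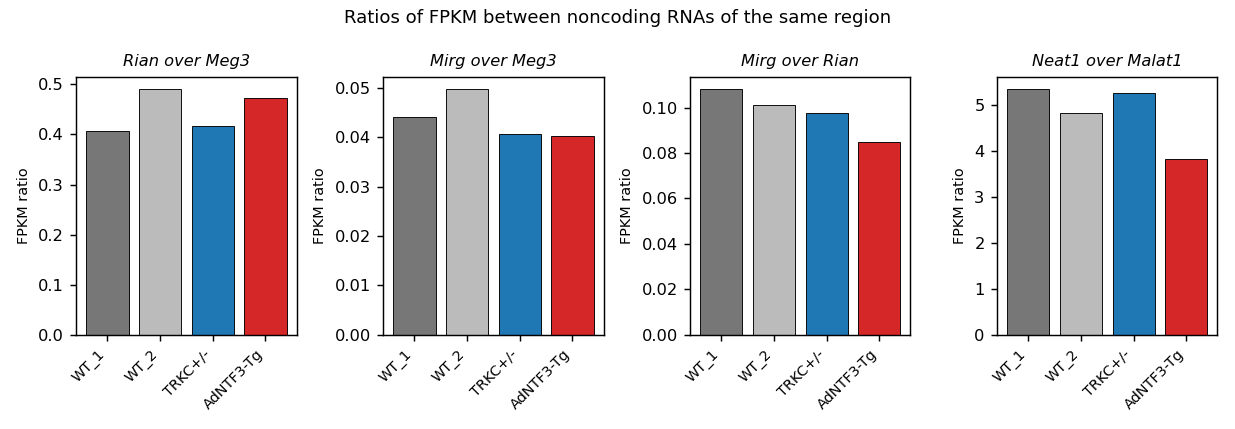
Ratios of FPKM between RNAs that lie in the same region, 1 bar per library: *Rian* over *Meg3*, *Mirg* over *Meg3*, *Mirg* over *Rian* and *Neat1* over *Malat1*. *Neat1* over *Malat1* is 3.83 in the AdNTF3-Tg library and 4.83 to 5.34 in the others.

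Of the 8 genes of the *Dlk1*-*Dio3* list, these 3 RNAs included, 1 passed 0.5 in the library labelled TRKC+/- against WT_1, 1 against WT_2, 2 in the AdNTF3-Tg library against each WT library and 2 between the WT libraries. *Dio3*, a thyroid hormone deiodinase gene with 1 to 4 reads, was among the calls in 4 of these 5 comparisons and was past 0.5 against both WT libraries in the AdNTF3-Tg library, on too few reads for a fold. Over all genes 10.7% to 13.9% passed in a comparison. *Rtl1*, a paternally expressed retrotransposon-like gene whose antisense strand carries transcription of the maternal array, had 2.77 FPKM (125 reads) in WT_1, 2.6 (119) in WT_2, 2.75 (127) in the library labelled TRKC+/- and 1.76 (80) in the AdNTF3-Tg library. It was lower in the AdNTF3-Tg library than in both WT libraries, at -0.63 (-1.09 to -0.25) and -0.54 (-0.99 to -0.15), while the library labelled TRKC+/- was at -0.01 and 0.08. RefSeq has *Rtl1* overlap *Meg3* and *Rian*, and antisense reads counted there cannot be told apart from its own. *Dlk1*, which codes for a Notch ligand-like protein, had 13 to 24 reads, far below the maternal RNAs. *Dio3os*, the noncoding gene to the right, had 4 reads in WT_1, 2 in WT_2, 9 in the library labelled TRKC+/- and 1 in the AdNTF3-Tg library.

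*Snhg11* (Entrez 319317) lies on the plus strand of chromosome 2, from 158201374 to 158211881, where GENCODE calls it protein-coding and RefSeq calls it a long noncoding RNA. It had 278.32 FPKM (14061.47 expected reads) in WT_1, 276.52 (14205.34) in WT_2, 266.3 (13776) in the library labelled TRKC+/- and 286.79 (14660.08) in the AdNTF3-Tg library. It was the steadiest of the 9, with the library labelled TRKC+/- lowest and the AdNTF3-Tg library highest. The library labelled TRKC+/- was at -0.06 (-0.10 to -0.03) against WT_1 and at -0.05 (-0.09 to -0.02) against WT_2, the AdNTF3-Tg library was at 0.04 (0.00 to 0.07) and 0.05 (0.02 to 0.09), and WT_2 was at -0.01 (-0.05 to 0.02) against WT_1. These differences are a few percent and rest on 1 pool per mutant. *Snhg17*, the host gene beside it, had 2.4 to 2.58 FPKM and *Ralgapb*, on the other side, 14.75 to 16.68 FPKM.

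A list of 58 other long noncoding RNAs known by name gave the setting of these 9. Of these, 57 were matched, 46 were listed in at least 1 library and 39 in all 4. In the library labelled TRKC+/- 8 passed 0.5 against WT_1 (20.5%) and 10 against WT_2 (25.6%), in the AdNTF3-Tg library 9 did against each (23.1%), and 8 did between the WT libraries (20.5%). The shares over all genes, given above, were lower, and the list had a median of 37.2 reads a gene beside 202 over all genes. The list medians lay between -0.06 and 0.07.

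Against both WT libraries in the same direction, 3 of the 39 (7.69%) passed 0.5 in the library labelled TRKC+/- and 4 (10.3%) in the AdNTF3-Tg library, beside 4.27% and 5.70% of all genes and 16.4% and 17.4% of the RefSeq long noncoding class. *Dancr*, a host gene of small nucleolar RNA, had 1.29 FPKM (11 reads) in WT_1, 1.52 (13) in WT_2, 2.88 (25) in the library labelled TRKC+/- and 2.82 (24) in the AdNTF3-Tg library, and was the only RNA of the list at least 0.5 higher than both WT libraries in both mutants. Its log2 ratios were 1.10 and 0.88 in the library labelled TRKC+/- and 1.07 and 0.85 in the AdNTF3-Tg library, and the counting intervals against WT_2 included 0 in both. *Snhg7* passed in the library labelled TRKC+/-, at 7.03 FPKM beside 4.85 in WT_1, 3.41 in WT_2 and 4.42 in the AdNTF3-Tg library, with ratios of 0.53 (-0.19 to 1.24) against WT_1 and 1.02 (0.28 to 1.88) against WT_2. *Oip5os1*, also called Cyrano, was lower in the library labelled TRKC+/-, with 3.06 FPKM (41 reads) beside 5.17 (65) in WT_1, 4.54 (58) in WT_2 and 4.82 (61) in the AdNTF3-Tg library, at -0.74 (-1.30 to -0.12) against WT_1 and -0.55 (-1.12 to 0.09) against WT_2. In the AdNTF3-Tg library *Epb41l4aos* was lower, with 3.37 FPKM (11 reads) beside 7.5 (25) in WT_1, 5.41 (17) in WT_2 and 4.44 (15) in the library labelled TRKC+/-, at -1.13 (-2.38 to -0.13) against WT_1 and -0.67 (-1.86 to 0.56) against WT_2. *Snhg18* was lower there too, with 1.11 FPKM beside 1.67, 2.29 and 1.79, at -0.55 (-1.70 to 0.44) and -0.98 (-2.08 to -0.08). *Mir99ahg* was past 0.5 there as well, on 3, 3, 3 and 7 reads in WT_1, WT_2, the library labelled TRKC+/- and the AdNTF3-Tg library, which is too few for a fold.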

How the data were processed

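Oligo(dT)-selected RNA of pooled ganglia was sequenced as single-end reads. Per the paper's methods the authors filtered reads with SOAPnuke and mapped them with HISAT2 to mm9, while the submitters' processing notes name RSEM and mm10, and the strand setting is not given in the sources used here. For each Entrez gene the authors deposited an expected count, not normalized and with shared reads divided between genes, and an FPKM value. Positions of genes are from GENCODE vM1 on NCBIM37, and promoter and microRNA sequences from RefSeq on GRCm38.p6. RefSeq symbols matched 17619 of 17667 genes (99.7%).

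Libraries were grouped by the genotype label. Ratios are log2((FPKM + 0.1)/(FPKM + 0.1)) over 15275 genes listed in all 4 libraries, and a gene was counted at an absolute value of at least 0.5. Exact Clopper-Pearson 95% intervals of the share of reads of a pair of libraries, from expected counts rounded to whole numbers, were converted to log2 ratios per library total. They cover counting error only. Totals were 8665955 to 8894985 reads, and 92.6% to 93.7% of expected counts were whole. With 1 library per mutant there was no test and no p-value.

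The members and lists were chosen with earlier results of these data known. The genes named are the 9 RNAs, *Ntrk3* and *Ntf3*, the nearest listed gene on each side of a member (1 is not reported here), the 3 genes nearest in pattern to the first pair, and, in each list of noncoding RNAs, nuclear body proteins, *Miat* partners and the *Dlk1*-*Dio3* region, the genes past 0.5 against both WT libraries or otherwise the 2 with the highest mean. Marker lists are given as sums and counts. *Cpsf6*, *Sfpq*, *Nono*, 3 brown adipocyte markers and the RNAs of the closing section were added after their values were seen. The alternatives were pseudocounts of 1 and 0.01 FPKM, a filter at a mean of 1 FPKM, missing genes set to 0, median centring, rescaling of the FPKM sums, TMM scaling of the counts (edgeR 4.0.16, R 4.3.3), a cutoff of 1, the mean of both WT libraries, and leaving out each WT library. Python 3.11.15, pandas 2.3.3 and scipy 1.17.1 were used.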

Additional observations from a re-analysis of the deposited data

How the results depend on the processing

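The count of members past the cutoff was the same under a pseudocount of 0.01 FPKM, a filter at a mean of 1 FPKM (12752 genes), missing genes set to 0 (17667 genes), median centring, rescaling of the FPKM sums and TMM scaling. With a pseudocount of 1 FPKM, and also with a cutoff of 1, the AdNTF3-Tg library had 0 members past the cutoff against WT_1 and 0 against both WT libraries, in place of 1 each, because *0610038B21Rik* is near 1 FPKM and its ratio against WT_1 is -0.58. The choice of the WT library decided the other counts. When both WT libraries were averaged, 2 members passed in the library labelled TRKC+/- in place of 0, *1600020E01Rik* at -1.12 and *0610038B21Rik* at 0.64, and 1 in the AdNTF3-Tg library, *0610038B21Rik* at -1.23. Leaving out 1 WT library gave 0 to 2 members in the library labelled TRKC+/- and 1 to 2 in the AdNTF3-Tg library: 2 without WT_2 and 2 without WT_1, respectively.

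Of 315 member ratios under 7 alternatives, 305 moved by less than the reach of their counting interval to either side, 10 moved by more (*Meg3*, *Snhg11* and *Rian* under TMM scaling or rescaling), and no ratio past 0.5 changed sign. The sign of 3 ratios of at most 0.04 changed, 1 each of *Meg3*, *Miat* and *Snhg11*. No paired analysis was possible because each mutant has 1 library and its label does not give it a replicate number in common with a WT library. Depth limits *1600020E01Rik* (10 to 34 reads) and *0610038B21Rik* (5 to 22 reads) most.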

Other observations

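The long noncoding class was described over the 591 genes that RefSeq gives it and that were listed in all 4 libraries, the 9 included. In the library labelled TRKC+/- 206 of them (34.9%) passed an absolute log2 ratio of 0.5 against WT_1 and 224 (37.9%) against WT_2, in the AdNTF3-Tg library 212 (35.9%) and 224 (37.9%), and between the WT libraries 216 (36.5%). The class had a median of 15.5 reads and 1.09 FPKM a gene, beside 202 reads and 7.89 FPKM over all genes, and the WT libraries differed as often as a mutant and a WT library did.

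*Norad*, which binds Pumilio proteins, was the fourth most abundant RNA of the class, after *Rian* and before *Neat1*. It had 183.92 FPKM in WT_1, 191.47 in WT_2, 195.56 in the library labelled TRKC+/- and 189.33 in the AdNTF3-Tg library. *A230070E04Rik*, which followed *Neat1*, had 68.23 FPKM (1067 reads) in WT_1, 69.96 (1105) in WT_2, 77.22 (1232) in the library labelled TRKC+/- and 88.09 (1384) in the AdNTF3-Tg library. The AdNTF3-Tg library was at 0.37 and 0.33 against WT_1 and WT_2, which differed from each other by 0.04, and the library labelled TRKC+/- was at 0.18 and 0.14. Both genes were named after their values were seen, as the most abundant of the class that are not among the 9.

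Among the named RNAs past the cutoff between the WT libraries, *Snhg14*, a host gene in the imprinted Prader-Willi region, had 8.71 FPKM (163 reads) in WT_1, 17.86 (338) in WT_2, 10.84 (207) in the library labelled TRKC+/- and 17.85 (336) in the AdNTF3-Tg library. It grouped WT_1 with the library labelled TRKC+/- and WT_2 with the AdNTF3-Tg library, a pairing other than that of *1600020E01Rik*. *H19*, an imprinted RNA of embryonic and muscle tissue, had 2.11 FPKM (47 reads) in WT_1, 0.66 (15) in WT_2, 1.45 (33) in the library labelled TRKC+/- and 1.07 (24) in the AdNTF3-Tg library, the same order as the summed markers of skeletal muscle, blood, fibroblasts and satellite glia. The part of these tissues in its level was not tested. Both were named after their values were seen.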
